A study of Mus musculus with 8 samples.

Results

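Vascular and leptomeningeal cells (VLMCs) are the fibroblasts of the pia and arachnoid and of the sheaths around brain vessels. They were examined here in the median eminence (ME), where the portal capillaries and the pial surface lie close to the tanycytes. Members were chosen by their UMIs: a cell of the single-cell library was taken where the transcripts of Dcn, Lum, Col1a1, Col1a2 and Col3a1 together made up at least 0.3% of its unique molecular identifiers (UMIs, 1 per captured transcript). Of 990 cells, 186 passed this gate (18.8%, exact Clopper-Pearson interval 16.4% to 21.4%). They are called VLMC-like cells below, since 9 of the 14 VLMC markers that the gate did not use were at least 4-fold higher in them, although several leptomeningeal transporters were near 0.

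The single-cell library pooled the ME of 10 wild-type female C57BL/6 mice (the strain in the labels, C57BL/6N in the study's methods), 2 months old, which was dissociated with papain and prepared with a 10x 3' chemistry. The study also sequenced bulk RNA of ME from 3 control mice (genotype WT in the labels) and 4 Rax::BrafV600E mutant mice (Rax-CreERT2::BrafV600E in the study's text), both groups C57BL/6 and 2 months old in the labels, with full-length Smart-seq2 libraries. In the mutants a tamoxifen-inducible Cre under the Rax gene switches on the oncogenic Braf allele in tanycytes. The study placed the dissection 2 months after tamoxifen, which it gave to adult mice. The 2 months in the labels may therefore not be the age at dissection. The bulk comparison asks how ME in which tanycytes carry the oncogene differs from normal ME. The 186 VLMC-like cells held 1337411 UMIs, with a median of 6612.5 per cell (3287 to 20264) and a median of 2436.5 genes, against medians of 8306 UMIs and 2273 genes in the 804 other cells. All cells came from 1 library, so the values below have no replicate check, no test was run across cells, and the intervals cover counting error only.

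VLMCs lay down the interstitial matrix of the meninges. Fibrillar collagens form its fibres, small leucine-rich proteoglycans such as decorin bind to the fibres and set their spacing, and processing enzymes trim and cross-link them. The cells also contribute to the basement membrane at the brain surface, secrete retinoids, growth factors and chemokines, and, in the leptomeninges, carry transporters between cerebrospinal fluid and blood.

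Dcn (decorin, ENSMUSG00000019929, chr10:97479609-97518143) and Lum (lumican, ENSMUSG00000036446, chr10:97565128-97572703) encode small leucine-rich proteoglycans and are neighbours on the same strand of chromosome 10, 46984 bases apart (GRCm38, GENCODE M21). Col1a1 (chr11:94936224-94953042), Col1a2 (chr6:4504814-4541544) and Col3a1 (chr1:45311538-45349706) encode the chains of type I and type III collagen. Itih5 (an inhibitor heavy chain family member that binds hyaluronan, chr2:10153571-10256529) and Tcf21 (a basic helix-loop-helix factor of mesenchymal cells, chr10:22817281-22820174, minus strand) mark the same cells without being part of the gate. Upstream sequence from RefSeq (GRCm38.p6) was found for 22 of the 30 genes formed by the 5 gate genes and the 25 leading genes below. It is shown for 1 collagen of the gate and for both outside markers, to show a gene that chose the cells beside those that were not used to choose them. Each runs 5′ to 3′ on the gene's strand and ends at the RefSeq start, except that the last 31 bases of the Tcf21 window lie within the GENCODE gene and were left out. The stretches are chr1:45311288-45311537 (plus), chr2:10153293-10153542 (plus) and chr10:22820175-22820393 (minus). Capitals mark each match to the E-box, CANNTG, the motif of helix-loop-helix factors.

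Col3a1: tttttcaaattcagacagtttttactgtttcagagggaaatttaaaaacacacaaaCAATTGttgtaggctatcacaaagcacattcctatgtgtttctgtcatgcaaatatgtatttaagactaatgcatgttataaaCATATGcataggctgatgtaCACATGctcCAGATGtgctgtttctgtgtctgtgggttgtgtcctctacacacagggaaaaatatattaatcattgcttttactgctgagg
Itih5: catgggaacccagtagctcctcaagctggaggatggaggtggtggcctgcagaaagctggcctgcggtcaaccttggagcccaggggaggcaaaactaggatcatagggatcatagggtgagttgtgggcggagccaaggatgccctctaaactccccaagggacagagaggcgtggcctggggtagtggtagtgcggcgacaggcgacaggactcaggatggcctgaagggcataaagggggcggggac
Tcf21: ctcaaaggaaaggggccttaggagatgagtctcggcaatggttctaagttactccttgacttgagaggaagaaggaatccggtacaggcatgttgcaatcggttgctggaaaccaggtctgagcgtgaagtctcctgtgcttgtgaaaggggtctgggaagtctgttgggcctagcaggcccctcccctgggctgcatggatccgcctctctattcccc

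The Col3a1 stretch held 4 matches, and those of Itih5 and Tcf21 held 0. The motif reads the same on both strands, and 66.2% of the 32851 RefSeq windows of 250 bases held at least 1 match.

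The gate genes separated the cells into high and low groups. Their share of a cell's UMIs had a median of 2.16% in the 186 VLMC-like cells (quartiles 1.65% and 2.57%, range 0.307% to 4.99%) and of 0.0127% in the others. Only 15 cells of the library lay between 0.1% and 0.3%, and 4 lay between 0.3% and 0.5%. The cells just below the threshold were at 0.273%, 0.233% and 0.206%, and those just above it at 0.307%, 0.347% and 0.420%. All 5 gate genes had a UMI in 156 members, 4 of them in 29 and 3 of them in 1. These shares chose the members and describe them only.

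**Figure D1:**
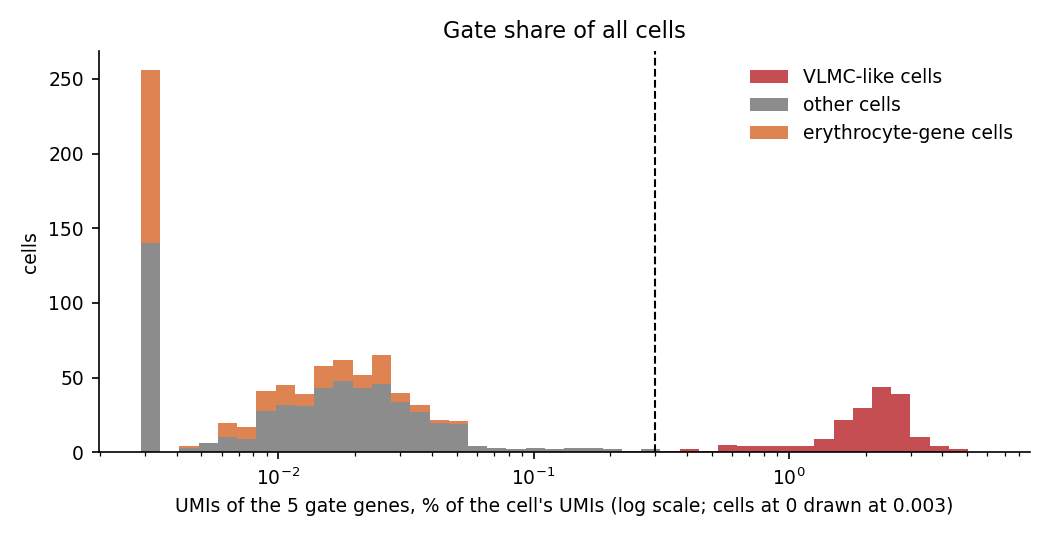
Histogram of all 990 cells by the share of their UMIs in the 5 gate genes (x axis, percent, log scale, with cells at 0 drawn at 0.003) against the number of cells; the dashed line is the threshold of 0.3%. VLMC-like cells (red) have a median of 2.16%, other cells (grey) and erythrocyte-gene cells (orange) lie almost wholly below 0.1%.

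Dcn was the most abundant of the gate genes, at 14387 CPM (UMIs per 1000000 UMIs of the summed cells) with an exact Poisson interval of 14185 to 14592, against 100.95 CPM in the other cells. A 10x UMI counts 1 transcript end, so levels of different genes can be set side by side without a correction for length. Per cell, Dcn had a median of 99.5 UMIs and reached 286, and it was present in 185 of 186 members. It was also found in 39.0% of the 241 erythrocyte-gene cells (haemoglobin at least 10% of UMIs, median 7884 UMIs), which should lack it, at 62.7 CPM. Lum was at 2048 CPM (1972 to 2126) against 17.9 CPM elsewhere and was uneven: 161 members (86.6%) had a UMI, with a median of 11.5 and a maximum of 94, and the 19 members with most held 34.5% of its UMIs. Lum was found in 8.30% of erythrocyte-gene cells. Col1a1, Col1a2 and Col3a1 were at 1686, 1276 and 1080 CPM, with medians of 11, 8 and 6 UMIs per member.

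Markers outside the gate pointed to the same cells. Itih5 was at 2824 CPM (2735 to 2916) against 25.5 CPM in other cells and was present in 182 members, and Tcf21 at 407.5 CPM (374 to 443) against 0.823 CPM. Tcf21 had a UMI in 138 members (74.2%) and in 0 of 241 erythrocyte-gene cells (interval up to 1.52%). Haemoglobin made up a median of 93.8% of the UMIs of erythrocyte-gene cells, so that limit covers detection and not expression. Because the cells were selected on other genes of the same transcriptomes, these contrasts describe the members and are not tests. Among 13125 genes with at least 20 UMIs, 486 (3.70%) were at least 4-fold higher in VLMC-like cells than in all other cells (pseudocount 5 CPM), and the median ratio over all of them was 0.955. The 14 markers outside the gate reached 9 of 11 that had enough UMIs for a ratio, with a median ratio of 15.6. They included Apod (a lipocalin, 4566 CPM), Mfap4 (a microfibril-associated protein, 2916 CPM), Islr (716 CPM) and Serping1 (the C1 inhibitor, 638 CPM). At the other end were markers described for leptomeningeal fibroblasts: Slc6a13 (a GABA transporter) at 8.22 CPM, Fmod (fibromodulin) at 5.98 CPM, Dpt at 2.24 CPM, which is 3 UMIs, and Slc22a6 (an organic anion transporter) at 0, below the floor of 3 UMIs (2.24 CPM).

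Of the 25 genes outside the gate with the largest ratio, the ones after Itih5, Mfap4 and Tcf21 were Inmt (a methyltransferase, 1484 CPM), Gsn (gelsolin, which severs actin filaments, 26005 CPM), Crispld2 (1306 CPM) and Angptl1 (591 CPM). Igfbp7 (an insulin-like growth factor binding protein) was at 3113 CPM, Efemp1 (a fibulin of elastic matrix) at 1658 CPM, Pcolce (which enhances procollagen processing) at 587 CPM, Serpinf1 (an anti-angiogenic serpin) at 1012 CPM and Mgp (matrix Gla protein, an inhibitor of calcification) at 10758 CPM. Id3 (2687 CPM), Il33 (an alarmin, 768 CPM), Cxcl12 (a chemokine, 627 CPM), Emp1 (754 CPM), Padi4 (247 CPM) and Nupr1 (1060 CPM) were also among them, with Fibin, Colec12, Serping1, Cemip, Cpxm1, Bgn and Scara5 between 217 and 980 CPM. Each of the 25 remained at least 4-fold higher when the erythrocyte-gene cells, whose UMIs are almost all haemoglobin, were taken out of the comparison (563 other cells). This outcome was fixed beforehand and is no check. The 25 had ratios of 28.7 or more, and the cells taken out held 2104007 of the 8508878 UMIs of the other cells.

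**Figure D2:**
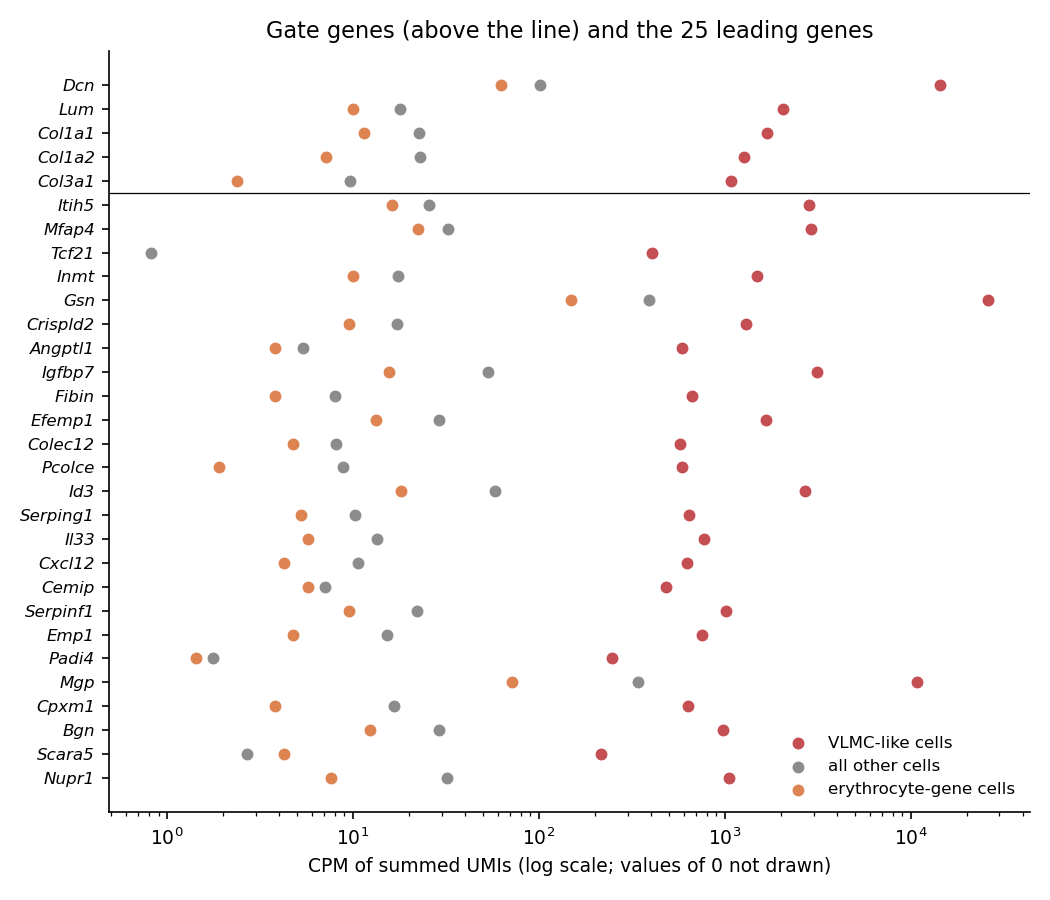
CPM of summed UMIs (x axis, log scale) for the 5 gate genes above the line and the 25 leading genes below it, in VLMC-like cells (red), all other cells (grey) and erythrocyte-gene cells (orange); values of 0 are not drawn. Dcn stands at 14387 CPM in VLMC-like cells against 100.95 CPM in other cells, and Tcf21 at 407.5 against 0.823 CPM.

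Per transcript, Malat1 (a nuclear long non-coding RNA) led at 5.48% of the UMIs of VLMC-like cells, followed by Gsn at 2.60% and Dcn at 1.44%. Fos, an immediate-early transcription factor, was at 11092 CPM against 1930 CPM in other cells, and Mgp followed. Further down were Klf2 at 8577 against 523, Jun at 8572 against 1277, Junb at 8209 against 1273 and Btg2 at 4693 against 819 CPM.

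Whether VLMC-like cells were vascular cells was asked next, since perivascular fibroblasts lie against endothelium and pericytes. Of the 186 members, 9 had a UMI of Cldn5, Pecam1 or Cdh5 (4.84%, 2.24% to 8.99%) and 23 had a UMI of Rgs5 or Kcnj8 (12.4%, 8.003% to 18.0%), 2 had both and 156 (83.9%) had neither. The endothelial share was 0.830% in the 241 erythrocyte-gene cells and 3.83% in the 235 tanycyte-gene cells (median 7886 UMIs), so for endothelial genes the interval of the members held the value of tanycyte-gene cells. With the gate at 1%, 3 of 165 members had an endothelial UMI (1.82%, 0.377% to 5.22%). The mural share was 2.07% in erythrocyte-gene cells and 1.70% in tanycyte-gene cells, both below the interval of the members. With every cell thinned to 3000 UMIs (0 cells were shallower), the endothelial share was 2.69% in members, 0.830% in erythrocyte-gene cells and 1.28% in tanycyte-gene cells, and the mural share 6.99%, 0.830% and 0.426%.

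**Figure D3:**
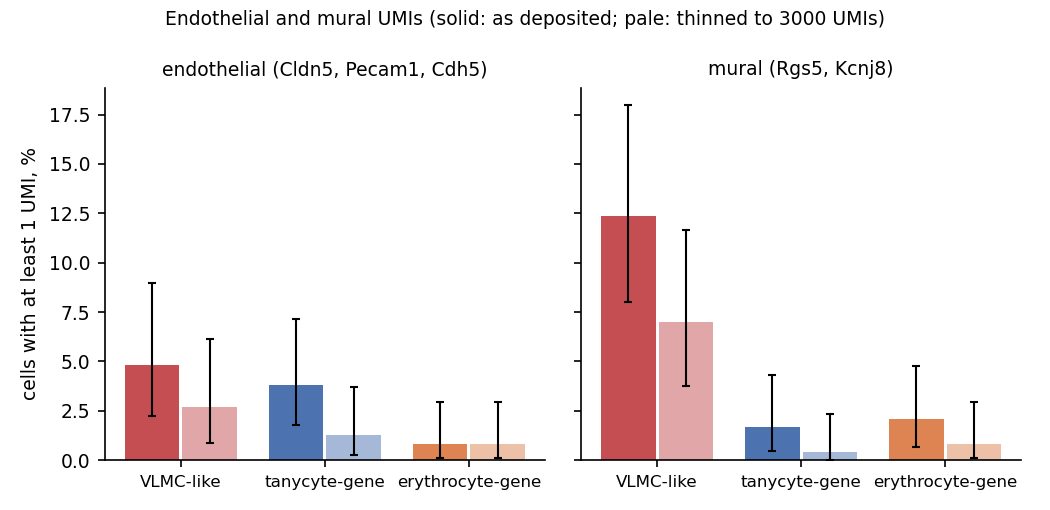
Share of cells with at least 1 endothelial UMI (left) or mural UMI (right), in percent, in VLMC-like, tanycyte-gene and erythrocyte-gene cells, as deposited (solid) and thinned to 3000 UMIs (pale), with exact Clopper-Pearson 95% intervals. The mural share of VLMC-like cells is 12.4%, against 2.07% in erythrocyte-gene cells, and the endothelial share 4.84% against 0.830%.

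These UMIs were few and spread over single genes. Cldn5, the tight-junction claudin of brain endothelium, had 0 UMIs in all members, Pecam1 (an adhesion molecule) 4 UMIs in 3 members, and Cdh5 (VE-cadherin) 10 UMIs in 7. No member had these genes at 0.05% of its UMIs. Kcnj8 (a pericyte potassium channel subunit) accounted for most of the mural UMIs, with 35 in 18 members, whereas Rgs5 (a pericyte regulator of G-protein signalling) had 8 in 5 and stood at 5.98 CPM in members and 9.64 CPM in other cells. Outside the gate, 4 cells had at least 3 UMIs and 0.05% of their UMIs in the endothelial genes and 2 had at least 3 UMIs and 0.1% in the mural genes, with 1 cell in both sets, too few for a comparison of levels.

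Of 13 endothelial markers with enough UMIs, 2 were at least 4-fold higher in VLMC-like cells, Ramp2 (an adrenomedullin receptor subunit, 828 CPM, in 97.3% of members and 7.88% of erythrocyte-gene cells) and Emcn (40.4 CPM, in 16.7% of members), and the median ratio was 1.62. Without the erythrocyte-gene cells in the comparison Emcn was at 6.40 CPM in other cells and fell below 4-fold, which left 1 of 13. Flt1 (a VEGF receptor) had 38 UMIs, 31 of them in a single member, and Plvap (the diaphragm protein of fenestrated capillaries) 29 UMIs, 17 of them in a single member. Vwf and Cldn5 were at 0. Of 7 mural markers, 5 were at least 4-fold higher: Pdgfrb (the PDGF receptor of pericytes and fibroblasts) at 98.7 CPM and in 46.2% of members, Des (desmin) at 71.8 CPM and in 34.4%, Anpep at 43.4 CPM, Kcnj8 at 26.2 CPM and Tagln at 19.4 CPM. The defining mural genes Notch3, Higd1b, Cnn1 and Myh11 were at 0, but they were also at or below 0.705 CPM in the other cells and had too few UMIs for a ratio, and Acta2 had 10 UMIs in 3 members. Scrublet called 3 of the 990 cells doublets (0.303%), of which 1 was a member.

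Among matrix genes, 14 of 20 genes of fibrillar collagen and elastic fibre were at least 4-fold higher in VLMC-like cells (median ratio 5.49). This and the list counts below stand against 3.70% of the 13125 genes compared. Without the erythrocyte-gene cells in the comparison, Fbln2 and Fbn1 fell below 4-fold, which left 12 of 20. After Mfap4 came Mfap5 (411 CPM), Col6a1 (381 CPM) and Fbln1 (333 CPM). Postn, a matricellular protein, was at 5.23 CPM. Of 20 genes that process or protect collagen, 9 were higher, with Timp3 (a metalloproteinase inhibitor) at 2992 CPM and Serpinh1 (the collagen chaperone) at 1585 CPM. Sparc was at 1504 CPM, and Timp2 at 681 CPM was below 4-fold. Without the erythrocyte-gene cells Sparc was also below 4-fold, which left 8 of 20. Of the small leucine-rich proteoglycans other than the gate genes Dcn and Lum, 3 of 5 were at least 4-fold higher: Bgn (biglycan) at 980 CPM, Ogn at 155.5 CPM and Omd at 18.7 CPM. Prelp at 223 CPM was below 4-fold, while Kera, the next gene after Lum on chromosome 10, was at 0 and Epyc had 1 UMI. Basement membrane genes reached 11 of 16, led by Col15a1 (307 CPM), Lama2 (179 CPM), Hspg2 (perlecan, 173 CPM) and Nid1 (170 CPM). Lama1 and Lama5 had 6 and 5 UMIs.

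Secreted signals and their receptors were partly shared with other cells. Of 29 secreted growth factors and binders, 10 were at least 4-fold higher, with Igfbp5 at 4059 CPM and Igfbp4 at 823 CPM after Igfbp7, then Igfbp6 at 727.5 CPM. Igf2, an embryonic growth factor often used to mark leptomeninges, was at 24.7 CPM (33 UMIs). Of 17 growth factor receptors, 4 were at least 4-fold higher: Pdgfra, the PDGF receptor of fibroblasts (289 CPM), Ntrk3 (148 CPM), Pdgfrb and Tgfbr3. Without the erythrocyte-gene cells in the comparison Ntrk3 was below 4-fold, which left 3 of 17. Fgfr1 at 324 CPM and Axl at 153 CPM were below 4-fold. Complement and chemokine genes reached 10 of 15 (median ratio 20.1), among them Il33, Serping1 and Cxcl12, while C4b and Cfb had 3 UMIs each. Cxcl10, a chemokine of the interferon response, was unevenly spread: 37 members had a UMI and 19 cells held 90.3% of its 617 UMIs. Retinoid genes reached 4 of 10, among them Rarres2 at 212 CPM, Crabp2 at 53.8 CPM and Stra6 at 31.4 CPM. Of the Crabp2 UMIs 50 of 72, and of the Stra6 UMIs 28 of 42, lay in the 8 members with at least 3 UMIs of Slc47a1 that are described below, and without these cells both genes were below 4-fold (17.6 and 11.2 CPM) and the list reached 2 of 10. Aldh1a1 at 100.2 CPM and Dhrs3 at 92.7 CPM were below 4-fold. Aldh1a2, the retinaldehyde dehydrogenase of embryonic meninges, was at 7.48 CPM.

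Mesenchymal transcription factors reached 15 of 20 (median ratio 4.90), or 13 of 20 without the erythrocyte-gene cells in the comparison. Klf4 was at 1897 CPM, Nr2f2 (COUP-TFII) at 290 CPM and Tcf21 at 407.5 CPM, as above, while Foxp1 at 115 CPM was below 4-fold. Foxc1 and Foxc2, forkhead factors needed for meningeal development, were at 81.5 and 68.0 CPM, and Twist2, Ebf2 and Tbx18 at 56.1, 46.4 and 20.2 CPM. Six2 was at 0. Layer genes of the meninges did not fall on 1 side. Of genes given for pial fibroblasts, 4 of 5 were higher (S100a6 at 1140 CPM, Cxcl12, Lama2 and Col4a5), of those for arachnoid fibroblasts 3 of 6 (Crabp2, Angptl2 and Tbx18, or 2 of 6 without the same 8 cells, since Crabp2 was then below 4-fold) and for dural fibroblasts 4 of 9 (Mgp, Pi16 at 162 CPM, Smoc2 at 141 CPM and Foxp2). The same 8 cells held 87 of the 188 Smoc2 UMIs and 3458 of the 14388 Mgp UMIs, and without them Smoc2 was at 80.9 and Mgp at 8752 CPM. Ptgds, which arachnoid fibroblasts and oligodendrocytes make, was at 169 CPM against 2406 CPM in other cells. Of 9 leptomeningeal transporters, 1 was higher, Slc1a5 (80.8 CPM), and Slc22a2 and Slc22a6 were at 0. Of 10 cell cycle genes, 0 were at least 4-fold higher and 4 at least 4-fold lower (against 3.22% of the 13125 genes compared), and Mki67, Top2a, Cdk1 and Ccnb2 had 0 UMIs in the 186 members.

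Markers of neighbouring types were mostly lower in VLMC-like cells than in all other cells. At least 4-fold lower were 7 of 7 oligodendrocyte, 6 of 8 macrophage and microglia, 5 of 7 pars tuberalis, 4 of 6 neuron, 4 of 6 oligodendrocyte precursor (OPC), 3 of 6 NK and T cell, 6 of 6 erythrocyte and 4 of 8 tanycyte markers. Of all these, 1 was at least 4-fold higher, Crym (59.1 CPM), a tanycyte marker, and it was below 4-fold without the erythrocyte-gene cells in the comparison. The summed oligodendrocyte markers stood at 611 CPM in members and 543 CPM in erythrocyte-gene cells, with Mbp the most abundant, and the macrophage and microglia markers at 361 CPM against 105 CPM, with C1qa the most abundant. Their part in the values above was not tested.

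Some cells next to the threshold differed from the bulk of the members in a transporter. Slc47a1 is a cation exporter found in arachnoid barrier cells, and the study used it with Tshb, the thyrotropin beta chain, to name pars tuberalis cells. It had at least 3 UMIs in 19 cells, a minimum chosen after the values were seen, and these cells held 83.7% of its UMIs in the library. Tshb had 0 UMIs in the 19 cells. Of the 19, 8 were inside the gate and 11 outside, with gate shares from 0.0766% to 1.32%, so the threshold ran through them. All 4 members below 0.5% were Slc47a1 cells, as were 9 of the 15 cells above 0.1% outside the gate. The cells nearest below the gate, at 0.273% and 0.233%, were not, with 0 and 2 Slc47a1 UMIs. Slc47a1 was at 1073 CPM in the 8 inside, at 1291 CPM in the 11 outside and at 17.6 CPM in the other 178 members.

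**Figure D4:**
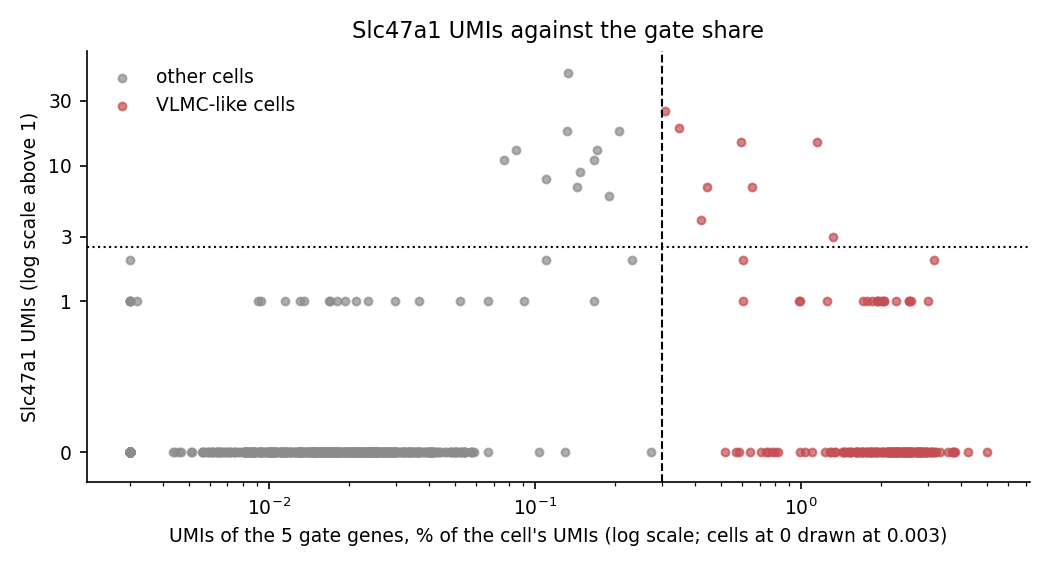
Slc47a1 UMIs of each cell (y axis, log scale above 1) against the share of its UMIs in the 5 gate genes (x axis, percent, log scale, cells at 0 drawn at 0.003); the dashed line is the gate and the dotted line separates the cells with at least 3 Slc47a1 UMIs. The 19 cells above the dotted line lie between 0.0766% and 1.32%, on both sides of the gate.

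On both sides of the gate the Slc47a1 cells shared further genes. Fxyd5 was at 2711 CPM inside and 2454 CPM outside against 48.8 CPM in the other members, 1500015O10Rik (augurin, a secreted peptide precursor) at 3592 and 1490 against 17.6 CPM, Slc4a10 (a bicarbonate transporter) at 508 and 741 against 4.004 CPM, Abcg2 (a barrier efflux pump) at 305 and 430 against 40.8 CPM, and Cdh1 (E-cadherin) at 136 and 191 against 4.80 CPM. Of the arachnoid barrier list, Cldn11, the claudin of that layer, was at 418 and 669 against 114 CPM, whereas Krt8 and Krt18 had 0 UMIs in the 19 cells and Dpp4 had 3. Of the markers outside the gate, Itih5 was at 339 CPM inside and 151 CPM outside against 3000 CPM in the other members, and Tcf21 had 1 UMI in the 19 cells together. Other genes differed across the gate. Krtdap had 176 UMIs in 4 cells inside the gate, 6 UMIs outside and 0 in the other members. Dmkn was at 474 CPM inside and 31.9 CPM outside, S100a6 at 1469 and 23.9 CPM, and Ptgds at 452 and 3808 CPM. These are sums over few cells and can rest on single ones. The 42 Dmkn UMIs inside lay in 3 of the 8 cells, 26 of them in 1 cell. Of the 11 cells outside, 1 held 47434 of their 125532 UMIs. Of the 9 members with endothelial UMIs, 3 were Slc47a1 cells, against 0 of the 23 with mural UMIs, whose median gate share of 2.44% lay above the 0.705% of the former.

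At a Leiden resolution of 0.5 the members formed 4 sets of 54, 60, 36 and 36 cells, and the 8 Slc47a1 cells all lay in the set of 60, whose genes of largest ratio were Krtdap, Sfrp4, 1500015O10Rik, Alpl and Dmkn. In the set of 54 these were Flt1, Plvap, Plscr2, Vtn and Ifit2, and the Flt1 UMIs came from 2 cells of the set. One set of 36 had Rab20, Cst6, Spp1, 1200007C13Rik and Cxcl14, with Spp1 (osteopontin) at 817 CPM against 117 CPM in the other members, and the other had C3, Sytl3, Gm26802, Mri1 and Tmem14a. At a resolution of 0.3 there were 3 sets, of which the smallest, 7 cells, were all Slc47a1 cells. The genes that define a set describe it only.

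Bulk ME libraries were not used by the gate and give the only replicated comparison. The 3 control libraries held 8348930 to 13816596 counts and the 4 BrafV600E libraries 4928456 to 10754670, and between 17874 and 40852 genes were detected per library, fewest in controls 3 and 2. Across the 20466 genes tested with edgeR's quasi-likelihood test, 0 (0%) passed an adjusted p of 0.05. At an unadjusted p under 0.05, 796 genes (3.89%) were lower and 865 (4.23%) higher in BrafV600E ME. DESeq2 called 361 genes and limma-voom 0, with 3658 and 2306 at an unadjusted p under 0.05. In tissue RNA, fewer VLMCs, a smaller share of VLMCs in ME enlarged by tumour, and less of a transcript per VLMC cannot be told apart.

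VLMC genes were mostly lower by sign in BrafV600E ME, and 0 of the 39 tested passed the adjusted threshold in edgeR with its default filter on low counts. In the edgeR fit with no such filter 12 passed, beside 240 of all 47682 genes tested. With at least 10 counts in every library 2 passed, beside 13 of 12402. Leaving out control 1, 3 passed, beside 45 of 23560, and leaving out control 3, 1 passed, beside 16 of 23365. In DESeq2 13 passed, beside 361 of 25477 genes with an adjusted p. By sign, 43.3% of the 20466 genes were lower in BrafV600E ME, and the median log2 difference was 0.13. Of the 25 leading genes of VLMC-like cells, 24 were lower, with a median log2 difference of -1.46. At an unadjusted p under 0.05, 17 of them were lower, against 3.89% of all genes tested. All 5 gate genes were lower (median -0.79, 3 at an unadjusted p under 0.05), as were 9 of the 13 tested markers outside the gate (median -0.56, 5 at an unadjusted p under 0.05). The lists are not separate, since Itih5, Mfap4, Tcf21 and Serping1 are both leading genes and outside markers. With each gene counted once, 34 of the 39 tested VLMC genes were lower, 21 of them at an unadjusted p under 0.05. For 15 of the 39 all BrafV600E libraries lay below all controls. All 4 BrafV600E libraries lay below all 3 controls for 12 of the 25 leading genes and 3 of the 5 gate genes, against 3.18% of all genes tested, and above them for 0, against 5.83%.

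Mfap4 had the smallest p of these genes. Controls 1 to 3 held 40.3, 50.6 and 31.2 CPM of it, and BrafV600E 1 to 4 held 6.29, 6.67, 5.18 and 3.396 CPM. The groups did not overlap, and the log2 difference was -2.91 (SE 0.39, edgeR adjusted p = 0.0678). Efemp1 stood at 321, 389.5 and 336 CPM against 155, 102.9, 86.7 and 91.3 CPM, a log2 difference of -1.68 (SE 0.29, adjusted p = 0.131) with no overlap. Pcolce was at 86.2, 179.8 and 141 CPM against 51.2, 32.6, 32.4 and 61.8 CPM, again without overlap (log2 difference -1.61, SE 0.35, adjusted p = 0.310). Mfap4 overlaps Mapk7 on the other strand and Pcolce overlaps Fbxo24 on its own strand, and without strand information in these libraries reads in the shared bases cannot be assigned.

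For Dcn the controls gave 826, 2264 and 2545 CPM and the BrafV600E libraries 593, 378, 323.5 and 242 CPM. Control 1 was the lowest control and still lay above the highest mutant, so the groups did not overlap, with a log2 difference of -2.29 (SE 0.44, adjusted p = 0.194). Lum was at 83.7, 208 and 197 CPM against 55.0, 27.4, 47.6 and 25.7 CPM (log2 difference -2.06, SE 0.40, adjusted p = 0.2002), with the same low control. Col1a1 was at 89.8, 137 and 96.35 CPM against 77.5, 70.9, 59.1 and 41.6 CPM, a smaller log2 difference of -0.79 (SE 0.31, adjusted p = 0.536). Col1a2 was at 100.1, 93.3 and 58.9 CPM against 52.4, 75.03, 45.3 and 46.5 CPM, and Col3a1 at 66.7, 36.8 and 18.2 CPM against 24.98, 28.3, 19.5 and 23.6 CPM. In both collagens the groups overlapped, and the log2 differences were -0.62 (SE 0.31, adjusted p = 0.653) and -0.75 (SE 0.42, adjusted p = 0.696). Without control 1 the Col3a1 difference was -0.21. With the number of detected genes in the fit, the differences of Dcn, Lum and Col1a1 were smaller, at -1.28, -1.36 and -0.51, and those of Col1a2 and Col3a1 larger, at -0.75 and -1.06.

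Itih5 was at 140.5, 263.5 and 299 CPM against 133, 75.7, 111 and 98.3 CPM (log2 difference -1.16, SE 0.33, adjusted p = 0.428). Tcf21 was at 5.54, 17.9 and 4.62 CPM against 5.20, 1.46, 2.00 and 2.14 CPM (log2 difference -1.78, SE 0.76, adjusted p = 0.587). Itih5 did not overlap between the groups, and Tcf21 did. Without control 2 the Tcf21 difference was -0.89, and with the number of detected genes in the fit Itih5 and Tcf21 were at -0.62 and -1.13. The 25 leading genes summed to 3241, 6609 and 5502 CPM in control ME and to 2639, 1594, 1603 and 1854 CPM in BrafV600E ME, so control 1 lay nearer to BrafV600E 1 than to the other controls.

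**Figure D5:**
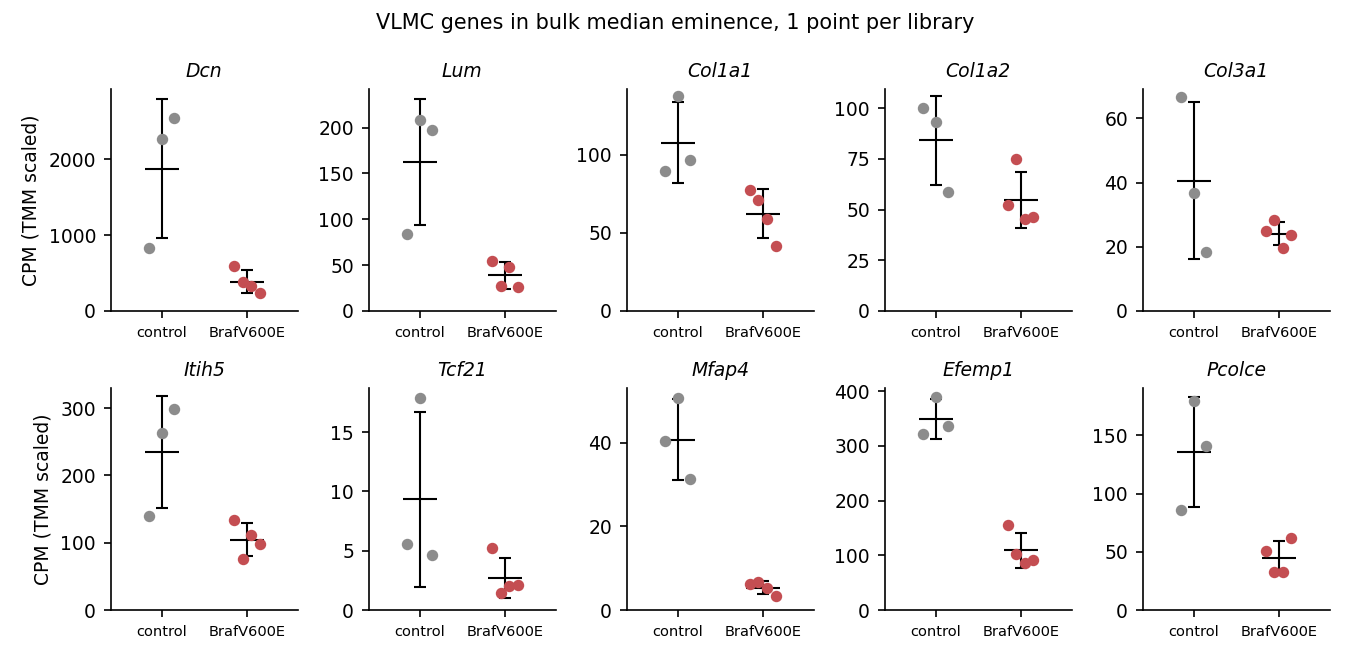
CPM of the 5 gate genes, Itih5, Tcf21, Mfap4, Efemp1 and Pcolce in bulk ME (y axes start at 0), with 1 point per library in control (grey, n = 3) and BrafV600E (red, n = 4) groups, the mean as a bar and the SD as whiskers. Mfap4 lies between 31.2 and 50.6 CPM in controls and between 3.396 and 6.67 CPM in BrafV600E ME, while Col1a2 and Col3a1 overlap between the groups.

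Cldn5 (log2 difference -0.56, adjusted p = 0.837), Pecam1 (-0.96, adjusted p = 0.637), Rgs5 (-0.58, adjusted p = 0.766) and Kcnj8 (-0.59, adjusted p = 0.852) were lower by sign in the edgeR fit and Cdh5 was higher (0.77, adjusted p = 0.860), with the signs of Cdh5 and Kcnj8 turning when the number of detected genes entered the fit. Single libraries moved these values by more than 1.5 times: without control 1, Cldn5 was at -0.89, Pecam1 at -0.52, Cdh5 at 1.31, Rgs5 at -0.21 and Kcnj8 at -0.98. Without control 2 Cdh5 was at 0.47, without control 3 Cldn5 was at -0.37, Rgs5 at -0.89 and Kcnj8 at -0.24, and without BrafV600E 2 Cldn5 was at -0.26. Plvap, of the fenestrated portal capillaries, was at 229, 167 and 144 CPM against 69.2, 26.5, 33.2 and 11.97 CPM without overlap (log2 difference -2.35, SE 0.49, adjusted p = 0.258). Of the 18 endothelial markers 13 were lower (median -0.72, against 43.3% of all genes lower by sign) and 7 lay below the controls without overlap (against 3.18% of all genes). Slc47a1 went the other way by sign, at 16.8, 23.4 and 12.15 CPM against 35.0, 23.1, 18.0 and 68.8 CPM (log2 difference 1.05, SE 0.49, adjusted p = 0.632), or 0.55 without BrafV600E 4 and 0.54 with a replicate block. Leptomeningeal transporters had a median log2 difference of 0.59, and their sum was highest in BrafV600E 4 at 7120 CPM, most of it Ptgds.

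Lists of other cell types also differed between the libraries. The 7 oligodendrocyte markers summed to 5654, 18562 and 16263 CPM in control ME and to 8495, 5636, 3893 and 4967 CPM in BrafV600E ME, all 7 lower (median -1.22, with Mbp the most abundant), and control 1 was among the BrafV600E values. The 8 macrophage and microglia markers, all lower (median -0.90, with C1qb the most abundant), summed to 1005, 3156 and 2142 against 1493, 611, 743 and 1136 CPM. Of 7 pars tuberalis markers 6 were lower (median -1.23, with Chga the most abundant). Of the 7, 2 lay below the controls without overlap, against 3.18% of all genes. Their sum was 13338, 4683 and 2519 CPM in control ME, with control 1 far above the others. In BrafV600E ME it was 3279, 2272, 4218 and 833 CPM. OPC markers went the other way, all 6 higher with a median of 2.37, while 43.3% of all genes were lower by sign. Of 8 tanycyte markers 3 were lower and 5 higher (median 0.55). At an unadjusted p under 0.05, 2 tanycyte markers were lower and 4 higher, against 3.89% and 4.23% of all genes. Erythrocyte markers, led by Hba-a1, summed to 5674, 6904 and 9737 CPM in controls and to 13256, 4375, 1673 and 1413 CPM in BrafV600E ME. The part of these cell types, and of the number of genes detected, in the VLMC gene values was not tested beyond the covariate fit given with the alternatives. Matrix lists were mixed in bulk. Of 22 genes of fibrillar collagen and elastic fibre 8 were lower and 14 higher (median 0.21), and of 17 basement membrane genes 10 were lower (median -0.07). Of 13 complement and chemokine genes 11 were lower (median -1.37), with 6 wholly below the controls (3.18% of all genes were) and 1 wholly above them (5.83%). These lists share genes with the VLMC genes above, Mfap4 and Fbln1 in the fibre list and Serping1, Cxcl12 and Il33 in the complement and chemokine list.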

How the data were processed

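The 10x library and the 7 bulk libraries were used. The authors deposited UMI counts per gene and cell (GRCm38/mm10 and Cell Ranger 2.0.1 in the submitters' notes) and raw read counts per gene for bulk ME, whose aligner is not given in the sources used here. Members, lists and tests were chosen with earlier results of these data known. Named genes are the rule's markers, the 25 genes of largest CPM ratio, up to 4 of highest CPM in each list, leading genes of sub-clusters, and in bulk the 5 VLMC genes of smallest p; other genes named were chosen after their values were seen. Cells were summed to CPM with exact Poisson intervals, clustered with scanpy 1.11.5 (10 components) and tested for doublets with Scrublet (expected rate 0.06). For bulk counts the quasi-likelihood test of edgeR 4.0.16 was run under R 4.3.3 (TMM scaling, filterByExpr, Benjamini-Hochberg), with DESeq2 1.42.0 and limma 3.58.1 (voom) among the alternatives. A floor of 3 counts corresponds to 0.217 to 0.609 CPM in the bulk libraries. P-values measure the spread between these libraries. The replicate numbers gave correlations of deviations of -0.45, -0.0076 and -0.23 for pairs 1 to 3, so they were not taken to pair the mice. Steps were tested on simulated data. Some genes of the lists are not reported here by name.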

Additional observations from a re-analysis of the deposited data

Results flagged for a closer look

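Cdh5 in BrafV600E 1 stood at 2.20 CPM, apart from the other 3 BrafV600E libraries at 5.42, 5.54 and 5.85 CPM, a gap large enough for Dixon's criterion at 4 samples. It was the only 1 of 17 genes looked at that met it, and chance gives about 1 in 20.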

How the results depend on the processing

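The floor of 3 UMIs is 2.24 CPM in the members. Other gates gave 163 to 189 members. Of the members, 3 had at least 2 endothelial UMIs and 0 had 0.05% of their UMIs in these genes, against 9 and 2 for mural genes. Thinning gave 5 and 13 members, and a gate at 1% gave 3 with endothelial UMIs. As a mean of per-cell values Dcn, Lum and Itih5 were 14743, 2127 and 2930 CPM, and without the Slc47a1 cells, chosen after seeing the data, 15124, 2188 and 3000.3 CPM. Without these cells, also tried after seeing the data, the mesenchymal factors at least 4-fold higher were 14 in place of 15, the retinoid genes 2 in place of 4, the arachnoid fibroblast genes 2 in place of 3 and the complement and chemokine genes 11 in place of 10. Resolution 1.0 gave 7 sub-clusters. With erythrocyte-gene cells left out of the comparison, 410 genes were 4-fold higher, and the lists that lost members were endothelial (1 in place of 2), fibrillar collagen and elastic fibre (12 for 14), collagen processing (8 for 9, without Sparc), receptors (3 for 4, without Ntrk3), mesenchymal factors (13 for 15), arachnoid fibroblast (2 for 3) and tanycyte (0 for 1), while in the retinoid list, still at 4, Crabp2 was lost.

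In bulk, DESeq2 called 361 genes (13 of the VLMC genes), no filter on low counts 240 (12), at least 10 counts in every library 13 (2), library sizes alone 3 (0), upper-quartile scaling 1 (0), the number of detected genes as a covariate 1 (0) and the replicate block 0 (0), with 549 at an unadjusted p under 0.05. The samples share only a number, and the block changed no call. With each library left out, 0 to 45 genes were called, 0 to 3 of them VLMC genes (45 and 3 without control 1, 16 and 1 without control 3), and the median of the gate genes ranged from -1.09 to -0.74. With detected genes as a covariate the median of all 39 VLMC genes tested moved from -1.17 to -0.85, that of the gate genes from -0.79 to -1.06 and that of the outside markers from -0.56 to -0.62, and Cdh5 and Kcnj8 changed sign to -0.097 and 0.26. The cause was not tested. The median log2 difference of all genes tested, 0.13, became 0.25 with library sizes alone, 0.35 with limma-voom and 0.43 without control 1. With no filter it was 0.59 and with DESeq2 0.63. Lower values came with at least 10 counts in every library (-0.006), detected genes as a covariate (0.013) and without BrafV600E 4 (0.058). Over 15 alternatives, with no change of sign, Mfap4 ranged from -3.04 to -2.70 (adjusted p 2.86e-08 to 0.999). Dcn ranged from -2.66 to -1.28 (4.38e-05 to 0.9998), Lum from -2.40 to -1.36 and Plvap from -2.89 to -2.07 (1.01e-05 to 0.993).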
